A study of Homo sapiens with 8 samples.

Results

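The genes described here are the long noncoding RNA genes of 2 naming classes: symbols that start with LINC and digits, for long intergenic noncoding RNA, and symbols that end in -AS and a digit, for a transcript named as the antisense of another gene. They were taken by symbol from the deposited tables of genes rated detectable in SUDHL6 and HT, with a span of at least 300 bp. The rule found 130 genes in either table, 44 LINC and 86 antisense, of 14410 gene symbols. SUDHL6 had 108 of them (32 LINC and 76 antisense, of 13036 rows) and HT had 120 (40 LINC and 80 antisense, of 13701 rows), with 98 in both. The shortest was PCNA-AS1 at 385 bp, and 0 rows with such a symbol were under 300 bp. RefSeq matched 127 of the 130 by current or older symbol and gives 45 of them another name today. It classes 112 as lncRNA and 8 as protein coding, among them LINC00493, now SMIM26, and LINC00341, now part of SYNE3.

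Both cell lines are established lines of diffuse large B cell lymphoma, a tumour of mature B cells. The 4 groups were SUDHL6 with iEZH, SUDHL6 with DMSO, HT with iEZH and HT with DMSO, each after 96 hours and each with 2 RNA-seq libraries. The series title names iEZH as an inhibitor of PRC2, and DMSO is the usual solvent for such compounds; the labels state neither the dose, the library kit, nor whether the libraries keep strand. They do not say that the 2 libraries of a group came from separate cultures, so p-values measure only the spread between these libraries.

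Long noncoding RNAs are transcripts with no known protein product, and many are kept in or near the nucleus. Many antisense transcripts start within a gene or close to its start and run along the opposite strand. Such a pair may share a promoter region. Members here were taken by name, and some start farther off, as OIP5-AS1 does, 48619 bp from the start of OIP5. PRC2, whose catalytic subunit is EZH2, methylates lysine 27 of histone H3, binds mostly at promoters rich in CG dinucleotides, and keeps genes silent; it also binds many RNAs.

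Values are FPKM, fragments scaled to transcript length and to the mapped reads, so levels can be set side by side between genes. Libraries had 59563321 to 94821806 reads. The lowest value in a table is a shared floor, 0.0712 FPKM in SUDHL6 and 0.0613 FPKM in HT. All 5 B cell markers used (CD79A, CD79B, MS4A1, PAX5 and BCL6) were measured in both lines, and their summed level was 3333 to 3892 FPKM with iEZH and 3159 to 3179 FPKM with DMSO in SUDHL6, and 1856 to 1976 FPKM with iEZH and 1618 to 1648 FPKM with DMSO in HT. None of the 6 T and NK cell markers was listed in SUDHL6; in HT 5 of the 6 were, with sums of 2.10 to 2.94 FPKM with iEZH and 0.960 to 1.60 FPKM with DMSO. In bulk RNA, fewer cells of a kind and less RNA per cell cannot be told apart. The EZH2 transcript had 54.9 and 47.5 FPKM with iEZH against 63.1 and 58.7 FPKM with DMSO in SUDHL6, and 56.2 and 49.4 FPKM with iEZH against 63.6 and 55.9 FPKM with DMSO in HT. It missed the threshold in SUDHL6 as in HT (limma, adjusted p = 0.392 in SUDHL6 and 0.514 in HT), and an inhibitor acts on the enzyme, so its transcript does not check the labels.

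Most of the noncoding genes were weakly expressed. Their median level was 1.69 FPKM in SUDHL6 and 1.67 FPKM in HT, against 11.6 and 11.7 FPKM over all genes of these sizes. In each line 18 members lay above 10 FPKM and 3 above 100 FPKM. A gene was tested in a line when 2 or more of its 4 libraries reached 1 FPKM; 74 of 108 members passed it in SUDHL6 (68.5%, against 86.6% of all genes) and 74 of 120 in HT (61.7%, against 83.7%). LINC00159, LINC00305 and LINC00311 sat at the floor in all 4 HT libraries.

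**Figure D1:**
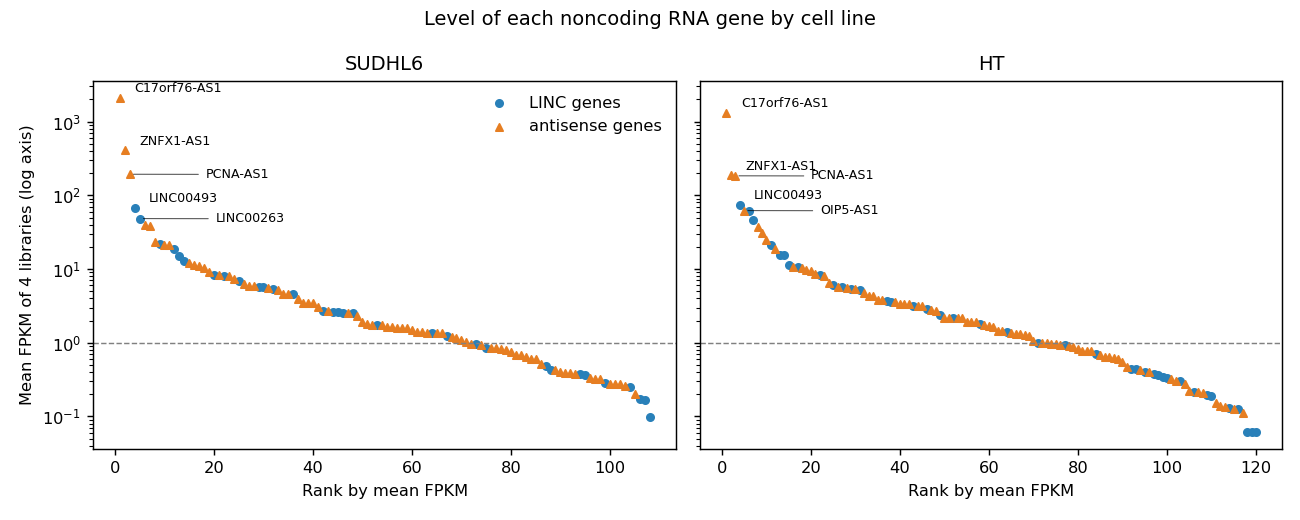
Mean FPKM over the 4 libraries of a line (y axis, log scale) against rank (x axis) for the 108 members measured in SUDHL6 (left) and the 120 in HT (right), LINC genes as circles and antisense genes as triangles. The dashed line marks 1 FPKM; 3 genes lie above 100 FPKM in each line, and the 5 highest are named.

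Of the 5 highest members, 4 were the same genes in both lines. C17orf76-AS1, which RefSeq calls SNHG29, a host gene of small nucleolar RNAs, had 2432 and 2442 FPKM with iEZH against 1810 and 1750 FPKM with DMSO in SUDHL6. In HT it had 1454 and 1567 FPKM with iEZH against 997 and 1255 FPKM with DMSO. The iEZH libraries were the higher in either line, without overlap. The log2 change was 0.45 in SUDHL6 (limma, adjusted p = 0.190) and 0.43 in HT (adjusted p = 0.174), short of the threshold of 0.05. The small nucleolar RNA genes SNORD49A and SNORD65 overlap its span. In HT SNORD65 had 1328 and 843 FPKM with iEZH and sat at the floor with DMSO. SNORD49A had 1538 FPKM in 1 DMSO library of HT and sat at the floor in the others. Whether their reads enter the level of C17orf76-AS1 was not tested. ZNFX1-AS1, now ZFAS1 and likewise a host of small nucleolar RNAs, had 431 and 389 FPKM with iEZH against 428 and 404 FPKM with DMSO in SUDHL6, and 165 and 193 FPKM with iEZH against 169 and 223 FPKM with DMSO in HT. Its groups overlapped in both lines. LINC00493, which encodes the small protein SMIM26, differed by 0.12 in SUDHL6 and -0.17 in HT on the log2 scale. PCNA-AS1 came next after ZNFX1-AS1 in both lines. It lies wholly inside PCNA, and without stated strand its reads cannot be told apart from those of PCNA. The remaining place was taken by LINC00263 in SUDHL6 and by OIP5-AS1 in HT.

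With iEZH, 1 of the 74 tested members passed in HT, upwards, and 0 of 74 passed in SUDHL6. Over all genes of at least 300 bp, 5.51% of 11164 passed in HT (4.07% higher and 1.44% lower) and 0.0182% of 11006 in SUDHL6 (0.0182% higher and 0% lower), beside a members' share of 1.35% in HT. With rows under 300 bp kept in the fit, 0 members passed in either line, against 0.269% of all genes in SUDHL6 and 0.609% in HT. At an unadjusted p under 0.05, limma gave 10 of the 74 members in SUDHL6 and 15 of the 74 in HT, against 2164 of 11006 and 2550 of 11164 genes. As deposited, 40 members were higher and 34 lower in SUDHL6 (median log2 change 0.03, against 0.04 for all genes) and 37 were higher and 37 lower in HT (0.00, against 0.02), but under quantile normalization the balance was 26 higher and 48 lower in SUDHL6 (median -0.12) and 20 higher and 54 lower in HT (-0.14). Under median-ratio rescaling it was 36 higher and 38 lower in SUDHL6 and 34 higher and 40 lower in HT. The iEZH and DMSO groups did not overlap for 34 of 74 members in SUDHL6 (45.9%; 22 above, 12 below), against 49.7% of all genes (28.9% above, 20.7% below). In HT that held for 32 of 74 (43.2%; 18 above, 14 below), against 52.3% of all genes (28.8% above, 23.5% below).

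KDM5B-AS1 was the member that passed in HT. RefSeq names it PCAT6; it lies beside KDM5B, which encodes a demethylase of lysine 4 of histone H3, at hg19 chromosome 1, 202780073 to 202781041, plus strand. The spans are 2524 bp apart and the genes run away from each other. Its promoter and that of KDM5B are shown because CG-rich promoters are where PRC2 is known mostly to bind, though its binding was not measured in these data; both come from RefSeq on GRCh38.p14, each 300 bases around the start, 5′ to 3′ on the strand of the gene, with CG in capitals. The first is chr1:202810704-202811003 on the plus strand and the second chr1:202808372-202808671 on the minus strand.
KDM5B-AS1: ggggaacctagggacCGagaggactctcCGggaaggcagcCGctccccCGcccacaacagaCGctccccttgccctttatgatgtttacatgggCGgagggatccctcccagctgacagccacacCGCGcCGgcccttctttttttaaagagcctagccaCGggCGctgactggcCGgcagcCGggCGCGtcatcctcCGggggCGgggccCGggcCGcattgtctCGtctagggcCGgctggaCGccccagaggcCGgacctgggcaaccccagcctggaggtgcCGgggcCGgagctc
KDM5B: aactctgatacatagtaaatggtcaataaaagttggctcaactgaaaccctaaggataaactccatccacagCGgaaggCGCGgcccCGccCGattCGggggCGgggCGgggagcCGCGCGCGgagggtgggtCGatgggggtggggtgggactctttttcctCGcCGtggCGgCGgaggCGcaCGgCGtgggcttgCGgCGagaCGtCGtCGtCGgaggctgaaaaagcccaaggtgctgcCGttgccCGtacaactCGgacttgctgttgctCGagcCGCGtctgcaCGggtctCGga
The KDM5B-AS1 window holds 25 CG and the KDM5B window 34. Of 35116 RefSeq promoter windows of the same length, 32.0% hold at least 25 CG and 15.6% at least 34; CG reads the same on both strands, and the median window holds 14. Promoter windows of 61 antisense members had a median of 28 CG, those of 29 LINC members 7, and those of 65 sense partners 30; members that RefSeq now calls protein coding were left out of the member counts.

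In HT, KDM5B-AS1 had 1.66 and 1.57 FPKM with iEZH against 0.436 and 0.589 FPKM with DMSO. Both iEZH libraries were high and the groups did not overlap. The log2 change of FPKM + 1 was 0.79 (SE 0.13; limma, adjusted p = 0.0285), a scale that understates changes of genes this low. The gene passed the filter only through its iEZH libraries. Its adjusted p was 0.0558 when rows under 300 bp were kept in the fit and 0.0873 with quantile normalization. KDM5B itself had 4.40 and 5.996 FPKM with iEZH against 3.51 and 3.96 FPKM with DMSO in HT (log2 change 0.38; limma, adjusted p = 0.247). Both genes of the pair had their iEZH libraries above their DMSO libraries there.

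In SUDHL6 the pair lay on opposite sides of DMSO. KDM5B-AS1 had 0.685 and 0.669 FPKM with iEZH against 1.00 and 0.976 FPKM with DMSO, under the filter and so not tested, with the iEZH libraries the lower. KDM5B had 1.33 and 2.12 FPKM with iEZH against 0.398 and 0.680 FPKM with DMSO (log2 change 0.81; limma, adjusted p = 0.115), and passed the filter there only through iEZH. The per library difference of log2(FPKM + 1), antisense minus sense, was -0.46 and -0.90 with iEZH against 0.52 and 0.23 with DMSO in SUDHL6, and -1.02 and -1.44 with iEZH against -1.65 and -1.64 with DMSO in HT. It was lower with iEZH in SUDHL6 and higher with iEZH in HT, without overlap in either line; the difference between lines was not tested, since KDM5B-AS1 missed the filter in SUDHL6.

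Among the HT members that did not pass, PCNA-AS1, MCF2L-AS1, BOLA3-AS1 and OIP5-AS1 had the largest log2 changes. PCNA-AS1 had 165 and 51.8 FPKM with iEZH against 296 and 221 FPKM with DMSO. Both iEZH libraries were below both DMSO libraries, but they differed from each other by more than the DMSO libraries did (log2 change -1.46, SE 0.48; limma, adjusted p = 0.131). Without iEZH replicate 2 the change was -0.63 (adjusted p = 0.0586), and without iEZH replicate 1 it was -2.28 (adjusted p = 0.000377); each of these fits sets a single iEZH library, assumed to vary like the others, against DMSO. PCNA-AS1 (hg19 chromosome 20, 5100231 to 5100615) lies wholly inside PCNA, the sliding clamp of DNA replication, and without stated strand the reads of the 2 genes cannot be told apart. MCF2L-AS1 had 5.65 and 7.90 FPKM with iEZH against 4.03 and 4.45 FPKM with DMSO, the iEZH libraries higher (0.56; adjusted p = 0.120, and 0.35 without iEZH replicate 2).

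BOLA3-AS1 and SPAG5-AS1 were over 1 FPKM in both DMSO libraries of HT and under it in both iEZH libraries. BOLA3-AS1, which starts 68 bp from BOLA3, a gene for mitochondrial iron-sulfur cluster assembly, had 0.594 and 0.570 FPKM with iEZH against 1.19 and 1.42 FPKM with DMSO (-0.54; limma, adjusted p = 0.0664). SPAG5-AS1, which starts 94 bp from the spindle gene SPAG5, had 0.648 and 0.667 FPKM with iEZH against 1.20 and 1.35 FPKM with DMSO (-0.45; adjusted p = 0.0936). In both, the 2 iEZH libraries were close together and below DMSO, and both genes passed the filter only through DMSO. OIP5-AS1, also known as cyrano, had 40.9 and 60.6 FPKM with iEZH against 61.4 and 84.5 FPKM with DMSO in HT. Its iEZH libraries were just below its DMSO libraries (log2 change -0.52, limma, adjusted p = 0.237). The log2 change was -0.80 without iEZH replicate 2, -0.25 without iEZH replicate 1 and -0.30 without DMSO replicate 2. By replicate number, whose meaning is not stated, the iEZH library of OIP5-AS1 was the lower each time. The values were 40.9 against 61.4 FPKM and 60.6 against 84.5 FPKM. The same direction by number held for PCNA-AS1 in SUDHL6 and LINC00263 in HT, whose groups overlapped. The reverse crossing of 1 FPKM, under it in both DMSO libraries and over it in both iEZH libraries, was seen in HT for KDM5B-AS1, for C1QTNF9B-AS1 (2.16 and 1.15 FPKM with iEZH against 0.815 and 0.964 FPKM with DMSO) and for LINC00266-1 (1.11 and 1.06 FPKM with iEZH against 0.850 and 0.987 FPKM with DMSO). In SUDHL6 it was seen for LINC00341 and LINC00461. Members with this reverse crossing passed the filter of that line only through their iEZH libraries.

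In SUDHL6 the 4 largest log2 changes among the tested members were all in LINC genes: LINC00341, LINC00467, LINC00174 and LINC00487. LINC00341 (hg19 chromosome 14, 95873603 to 95876427) had 2.38 and 2.21 FPKM with iEZH against 0.511 and 0.339 FPKM with DMSO. Both iEZH libraries stood far above DMSO, and the gene passed the filter only through them (log2 change 1.21, SE 0.13; limma, adjusted p = 0.0658). It passed in the fit of both lines together (adjusted p = 0.00740), and its adjusted p was 0.00162 to 0.0314 in the 4 fits that left out 1 SUDHL6 library. In those fits 1 group is a single library assumed to vary like the others, and all these values carry the same limit from the filter. Its neighbour C14orf49, 7403 bp away and an older symbol of SYNE3, the gene to which RefSeq now assigns LINC00341, had 3.72 and 2.58 FPKM with iEZH against 1.94 and 1.37 FPKM with DMSO in SUDHL6 (0.64; adjusted p = 0.159). SYNE3 encodes nesprin-3, a protein of the nuclear envelope.

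LINC00467 (hg19 chromosome 1, 211556096 to 211605877) had 10.0 and 10.8 FPKM with iEZH against 5.66 and 5.66 FPKM with DMSO in SUDHL6. The libraries within a group were close and the groups well apart (log2 change 0.77, SE 0.11; limma, adjusted p = 0.0766, and 0.0200 with both lines in 1 fit). LINC00174 had 2.98 and 4.20 FPKM with iEZH against 1.50 and 1.85 FPKM with DMSO, again with every iEZH library higher (0.77; adjusted p = 0.106, and 0.0408 with both lines in 1 fit). Its neighbour TPST1, a tyrosylprotein sulfotransferase gene, also had its iEZH libraries above DMSO, with 4.09 and 3.87 FPKM against 2.52 and 2.30 FPKM (0.55; adjusted p = 0.0986). LINC00487 had 11.0 and 17.3 FPKM with iEZH against 17.5 and 28.9 FPKM with DMSO, the iEZH libraries just below DMSO (-0.67; adjusted p = 0.304). That value ran from -1.02 without DMSO replicate 1 to -0.32 without DMSO replicate 2. It was -0.98 without iEZH replicate 2 and -0.37 without iEZH replicate 1. Set against the DMSO library of the same replicate number, each iEZH library was lower, 11.0 against 17.5 FPKM and 17.3 against 28.9 FPKM. What these numbers stand for is not stated. LINC00487 was weak in HT, at 0.131 and 0.299 FPKM with iEZH and 0.281 and 0.487 FPKM with DMSO.

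**Figure D2:**
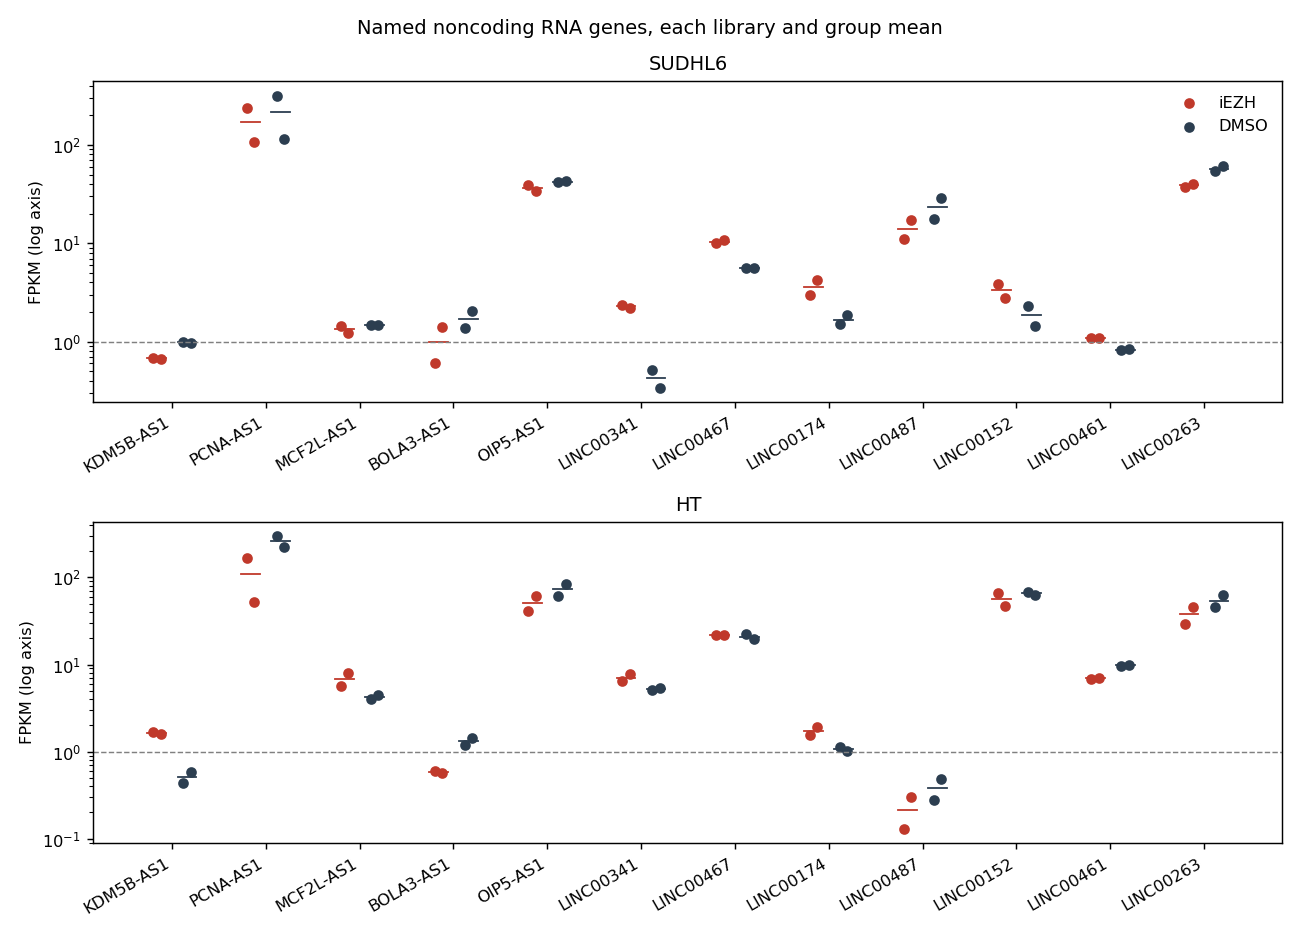
FPKM of each library (points, log axis) and the mean of 2 libraries (short lines) for 12 members in SUDHL6 (top) and HT (bottom), iEZH left of DMSO; the dashed line marks 1 FPKM. The KDM5B-AS1 points with iEZH lie below DMSO in SUDHL6 and above it in HT, where they are 1.66 and 1.57 FPKM, and the LINC00341 points with iEZH lie above DMSO in both lines.

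LINC00263, known as OLMALINC, had lower values with iEZH in both lines. It had 37.3 and 40.2 FPKM with iEZH against 54.2 and 61.0 FPKM with DMSO in SUDHL6, without overlap (log2 change -0.56; limma, adjusted p = 0.111). In HT it had 29.6 and 45.6 FPKM with iEZH against 45.3 and 62.6 FPKM with DMSO, with 1 iEZH library between the DMSO libraries (-0.52; adjusted p = 0.258). The nearest measured gene, SCD, the stearoyl-CoA desaturase 8744 bp away, had 382 and 364 FPKM with iEZH against 283 and 259 FPKM with DMSO in SUDHL6, and 260 and 324 FPKM with iEZH against 224 and 290 FPKM with DMSO in HT. SCD was thus on the other side of DMSO from LINC00263 in SUDHL6 and overlapped DMSO in HT.

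The nearest measured gene was also taken for every LINC member that passed the filter. In SUDHL6, 11 of 21 LINC genes had a log2 change of the same sign as the neighbour (52.4%) and in HT 12 of 22 (54.5%), while adjacent genes over the whole table had the same sign in 55.3% of 10982 pairs in SUDHL6 and 54.8% of 11140 in HT. The median gap was 8744 bp in SUDHL6 and 8277 bp in HT.

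Of the 68 members tested in both lines, 49 had log2 changes of the same sign (72.1%), against 64.9% of 10309 genes. Counting library positions instead, 6 members had their iEZH group above DMSO, without overlap, in both lines (8.82%, against 13.7% of genes): C17orf76-AS1, C1QTNF9B-AS1, EPB41L4A-AS1, LINC00174, LINC00338 and LINC00341. OIP5-AS1 alone lay below in both (1.47%, against 10.4%), with 39.1 and 34.3 FPKM with iEZH against 41.6 and 42.7 FPKM with DMSO in SUDHL6. Another 4, named for this pattern after their values were seen, lay on opposite sides without overlap (5.88%, against 5.95%): LINC00461 and TMEM161B-AS1 above in SUDHL6 and below in HT, and LINC00265 and MCF2L-AS1 the reverse.

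No member passed the test of the difference between lines, 0 of 68, against 0.0679% of 10309 genes (0.0388% higher and 0.0291% lower in SUDHL6); at an unadjusted p under 0.05 limma gave 9 of the 68 members (13.2%), against 1132 of 10309 genes (11.0%). The largest differences, SUDHL6 minus HT, were those of PCNA-AS1, LINC00152, LINC00341, LINC00467 and MCF2L-AS1. LINC00152, known as CYTOR, had 3.89 and 2.81 FPKM with iEZH against 2.32 and 1.43 FPKM with DMSO in SUDHL6, and 65.6 and 46.5 FPKM with iEZH against 68.9 and 62.9 FPKM with DMSO in HT. Its iEZH libraries were the higher in SUDHL6 and overlapped DMSO in HT (difference 0.85; adjusted p = 0.357). LINC00341 had 6.40 and 7.70 FPKM with iEZH against 5.03 and 5.34 FPKM with DMSO in HT, higher there too but by less (difference 0.84, SE 0.18; limma, adjusted p = 0.147). LINC00467 had 21.6 and 21.8 FPKM with iEZH against 22.2 and 19.5 FPKM with DMSO in HT, where the groups overlapped (difference 0.71, SE 0.15; adjusted p = 0.146). MCF2L-AS1 had 1.43 and 1.24 FPKM with iEZH against 1.49 and 1.48 FPKM with DMSO in SUDHL6 (difference -0.65; adjusted p = 0.323).

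**Figure D3:**
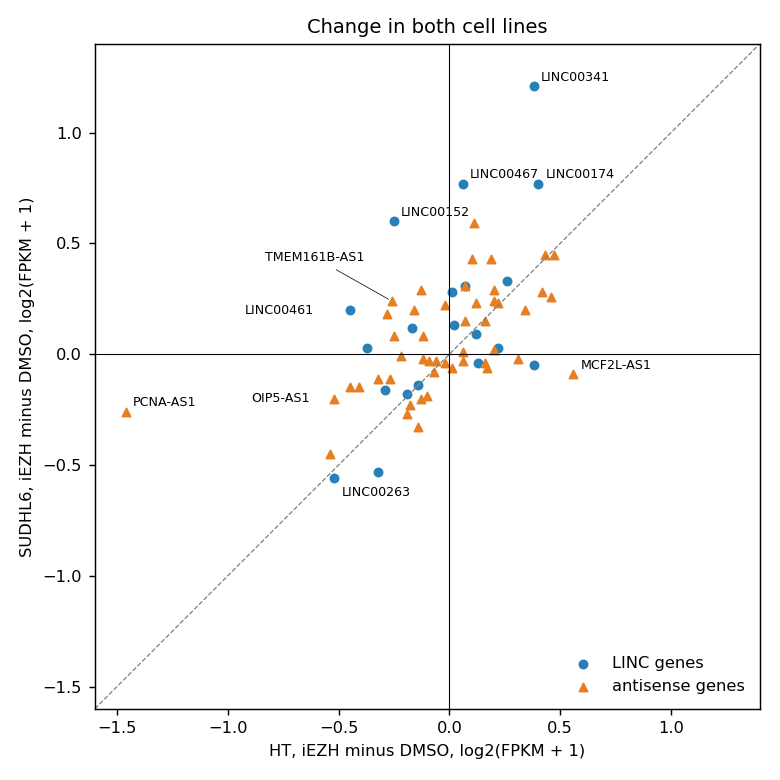
Log2 change of FPKM + 1, iEZH minus DMSO, in SUDHL6 (y axis) against HT (x axis) for the 68 members tested in both lines; the dashed line marks equal change. LINC00341, LINC00467 and LINC00152 lie above the line, and LINC00461 and TMEM161B-AS1 lie to the upper left of the origin.

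LINC00461 and TMEM161B-AS1 are neighbours on chromosome 5. LINC00461, which RefSeq calls MIR9-2HG because it is the host gene of a miR-9 precursor, spans hg19 chromosome 5, 87836596 to 87980620, on the minus strand, and TMEM161B-AS1, now TMEM161B-DT, spans 87564698 to 87732491 on the plus strand. Their RefSeq promoter windows on GRCh38.p14 are shown because these neighbours lay on the same side of DMSO in each line yet differ in CG content. The first is chr5:88684776-88685075 on the minus strand and the second chr5:88268766-88269065 on the plus strand, 5′ to 3′ with CG in capitals.
LINC00461: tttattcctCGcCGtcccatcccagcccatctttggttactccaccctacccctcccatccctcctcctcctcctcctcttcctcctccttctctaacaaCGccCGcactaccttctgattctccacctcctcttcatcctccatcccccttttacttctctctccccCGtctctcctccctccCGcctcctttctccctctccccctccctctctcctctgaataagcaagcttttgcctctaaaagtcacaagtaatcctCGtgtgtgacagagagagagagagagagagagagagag
TMEM161B-AS1: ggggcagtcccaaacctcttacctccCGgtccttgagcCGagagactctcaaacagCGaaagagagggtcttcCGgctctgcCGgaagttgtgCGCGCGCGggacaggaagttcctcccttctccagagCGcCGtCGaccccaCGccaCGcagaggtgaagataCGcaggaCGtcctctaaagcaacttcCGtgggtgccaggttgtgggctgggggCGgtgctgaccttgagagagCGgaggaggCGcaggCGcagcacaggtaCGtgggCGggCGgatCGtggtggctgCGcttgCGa
The LINC00461 window holds 7 CG, a number that 63.2% of all windows reach, and the TMEM161B-AS1 window 27, reached by 28.2%.

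LINC00461 had 1.09 and 1.09 FPKM with iEZH against 0.815 and 0.834 FPKM with DMSO in SUDHL6, and 6.83 and 7.01 FPKM with iEZH against 9.71 and 9.88 FPKM with DMSO in HT. Libraries of a group were close, and iEZH was the higher group in SUDHL6 and the lower in HT. The log2 change was 0.20 in SUDHL6 (limma, adjusted p = 0.449) and -0.45 in HT (adjusted p = 0.0987), and the difference between lines 0.64 (SE 0.15; adjusted p = 0.158). TMEM161B-AS1 had 4.18 and 4.50 FPKM with iEZH against 3.46 and 3.56 FPKM with DMSO in SUDHL6, and 3.38 and 2.91 FPKM with iEZH against 3.87 and 4.04 FPKM with DMSO in HT (difference 0.50, SE 0.16; adjusted p = 0.297). The next gene on the other side of LINC00461, MEF2C, a transcription factor used by B cells, was looked at after these values were seen. It had 1.19 and 1.28 FPKM with iEZH against 0.428 and 0.516 FPKM with DMSO in SUDHL6, and 16.3 and 17.8 FPKM with iEZH against 23.2 and 25.6 FPKM with DMSO in HT. MEF2C too was higher with iEZH in SUDHL6 and lower in HT, without overlap (difference 1.09, SE 0.16; adjusted p = 0.102). None of the 3 differences passed the test, and LINC00461 and MEF2C entered it in SUDHL6 only through their iEZH libraries. TMEM161B, which starts 33 bp from TMEM161B-AS1, had 7.76 and 8.94 FPKM with iEZH against 10.8 and 10.7 FPKM with DMSO in SUDHL6, on the other side of DMSO from its antisense gene. In HT it had 11.5 and 14.5 FPKM with iEZH against 15.1 and 14.1 FPKM with DMSO and overlapped, with a log2 change of -0.16 beside -0.26 for TMEM161B-AS1.

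Antisense genes were then set beside the genes they are named after. In SUDHL6, 70 of 76 antisense genes had a partner of that symbol in the table and both genes passed the filter in 45 pairs. In HT it was 71 of 80 and 46 pairs. In each line 1 of these pairs, HNRNPU-AS1 and HNRNPU, has both genes on the same strand. RefSeq now lists HNRNPU-AS1 under HNRNPU itself. This pair is kept in the counts below, with the same sign in HT and not in SUDHL6. In each line the strand was not known for 3 other pairs, and many pairs, counted below, have spans that do not overlap. In SUDHL6, 25 of the 45 pairs had log2 changes of the same sign (55.6%; 13 both higher, 12 both lower), against 55.3% of adjacent gene pairs. In HT, 31 of 46 did (67.4%; 15 both higher, 16 both lower), against 54.8%. The 2 log2 changes had a Pearson r of -0.17 and a Spearman correlation of -0.04 across the 45 pairs in SUDHL6, and 0.58 and 0.46 across the 46 in HT; pairs share the same libraries and, where the spans overlap, possibly the same reads. Without the PCNA pair, a choice made after seeing the data, r was -0.24 in SUDHL6 and 0.49 in HT. Pairs whose spans do not overlap had the same sign in 10 of 17 cases in SUDHL6 (58.8%) and 17 of 21 in HT (81.0%). Pairs with overlapping spans had it in 15 of 28 in SUDHL6 (53.6%, against 57.7% of adjacent genes with overlapping spans) and 14 of 25 in HT (56.0%, against 60.0%). These counts and correlations are descriptions, and the differences within pairs were not tested. The sense gene had the higher level in 35 of 45 pairs in SUDHL6 and 35 of 46 in HT.

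**Figure D4:**
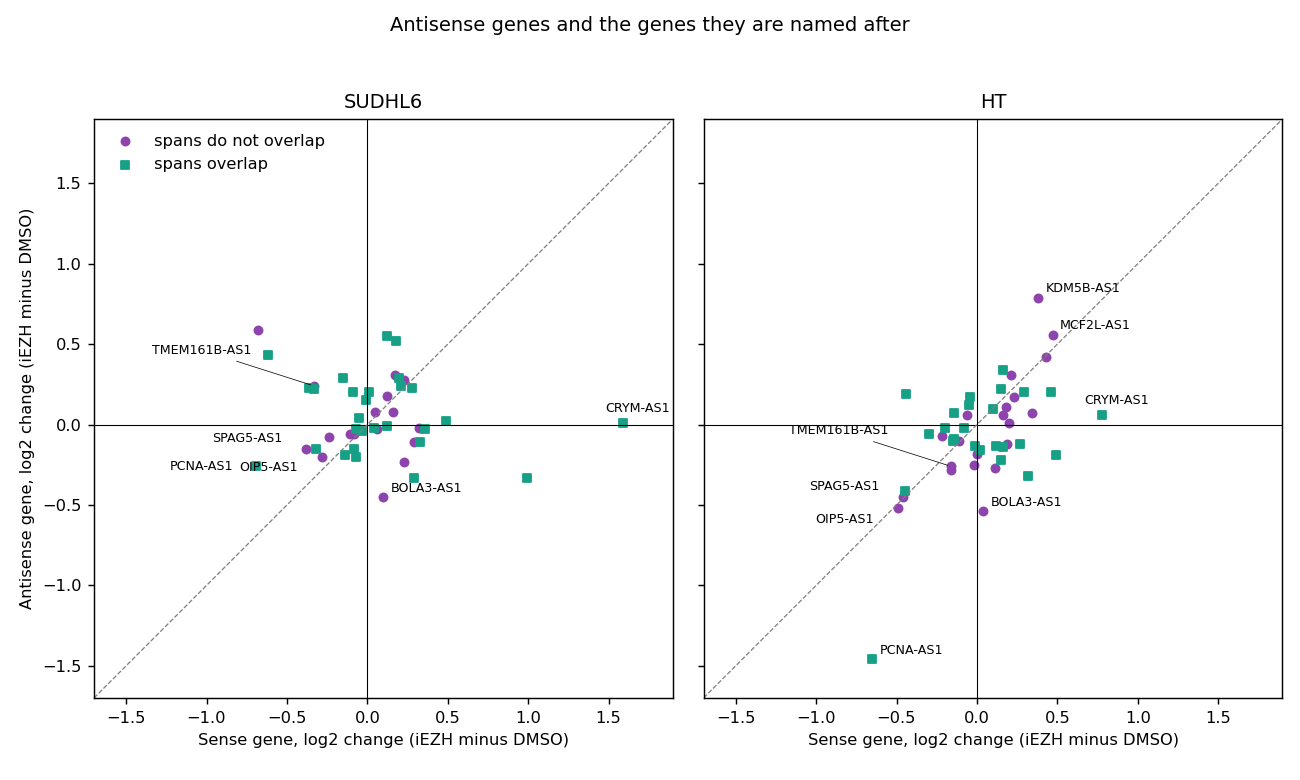
Log2 change of the antisense gene (y axis) against that of its sense partner (x axis), iEZH minus DMSO, for the 45 pairs of SUDHL6 (left) and the 46 of HT (right); the dashed line marks equal change. In HT PCNA-AS1 lies at -1.46 and -0.65 and KDM5B-AS1 at 0.79 and 0.38, and in SUDHL6 CRYM-AS1 lies at 0.01 with CRYM at 1.59.

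In SUDHL6 neither gene of any pair passed the test. In HT 4 of the 64 tested sense partners passed (6.25%, near the 5.51% of all genes), those of PCNA-AS1, RAD21-AS1, TSC22D1-AS1 and ZNF32-AS2. With rows under 300 bp kept in the fit none of the 4 passed, with adjusted p of 0.0750, 0.0793, 0.0547 and 0.0692 in that order. PCNA had 242 and 224 FPKM with iEZH against 370 and 363 FPKM with DMSO, and fell by 0.65 on the log2 scale (limma, adjusted p = 0.0390), while PCNA-AS1, which lies inside it, did not pass. In SUDHL6 PCNA had 229 and 174 FPKM with iEZH against 329 and 319 FPKM with DMSO (-0.69; adjusted p = 0.126), while PCNA-AS1 had 237 and 107 FPKM with iEZH against 317 and 114 FPKM with DMSO and overlapped. RAD21, a cohesin subunit, fell by 0.90 in HT, with 121 and 165 FPKM with iEZH against 258 and 270 FPKM with DMSO (adjusted p = 0.0389). RAD21-AS1 was under the filter in HT, with 0.0699 and 0.207 FPKM with iEZH against 0.301 and 0.286 FPKM with DMSO, lower with iEZH as RAD21 was. TSC22D1, a transcription regulator, rose in HT, with 4.21 and 5.36 FPKM with iEZH against 1.49 and 1.77 FPKM with DMSO (1.13; adjusted p = 0.0220). TSC22D1-AS1 was near the floor, with 0.0771 and 0.126 FPKM with iEZH against 0.138 and 0.0974 FPKM with DMSO, and its groups overlapped. ZNF32, a zinc finger gene, rose in HT, with 6.20 and 6.11 FPKM with iEZH against 3.49 and 3.67 FPKM with DMSO (0.64; adjusted p = 0.0429). ZNF32-AS2, which lies inside the span of ZNF32, had 0.411 and 0.736 FPKM with iEZH against 0.350 and 0.0888 FPKM with DMSO, under the filter and higher with iEZH.

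In some pairs the log2 changes of both genes were close and in others they were not. OIP5-AS1 and OIP5, a centromere gene, had log2 changes of -0.20 and -0.28 in SUDHL6 and -0.52 and -0.49 in HT, and SPAG5-AS1 and SPAG5 -0.15 and -0.38 in SUDHL6 and -0.45 and -0.46 in HT. MCF2L-AS1 and MCF2L had log2 changes of 0.56 and 0.47 in HT. In SUDHL6 MCF2L was under the filter, with 0.569 and 0.656 FPKM with iEZH against 0.391 and 0.453 FPKM with DMSO. MCF2L thus lay above DMSO there, while MCF2L-AS1 lay below it (log2 change -0.09). BOLA3-AS1 had log2 changes of -0.45 in SUDHL6 and -0.54 in HT, and BOLA3 0.10 in SUDHL6 and 0.04 in HT. The widest gap was seen for CRYM, a thyroid hormone binding protein gene, named after its values were seen. CRYM had 4.88 and 7.67 FPKM with iEZH against 1.09 and 1.68 FPKM with DMSO in SUDHL6 (1.59; limma, adjusted p = 0.0766), and 5.40 and 6.81 FPKM with iEZH against 2.59 and 3.69 FPKM with DMSO in HT (0.78; adjusted p = 0.0600). CRYM-AS1, which RefSeq now lists as the pseudogene ABCA15P and whose span overlaps that of CRYM by 2236 bp, had 1.13 and 0.820 FPKM with iEZH against 1.15 and 0.765 FPKM with DMSO in SUDHL6, and 1.15 and 1.62 FPKM with iEZH against 1.26 and 1.30 FPKM with DMSO in HT. CRYM lay above DMSO in both lines and CRYM-AS1 overlapped DMSO in both.

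Members under the filter were not tested, 34 in SUDHL6 and 46 in HT. The 2 iEZH libraries were above DMSO without overlap for 10 and below for 7 of the 34 in SUDHL6, where all genes under the filter had 46.9% above and 9.01% below. In HT they were above for 13 and below for 3 of the 46, against 49.1% above and 8.58% below over all genes under the filter. LINC00159 had 33.4 FPKM in 1 iEZH library of SUDHL6 and sat at the floor in the other iEZH library and in both DMSO libraries. BDNF-AS1, the antisense gene of the neurotrophin gene BDNF, was higher in both lines, with 0.998 and 1.02 FPKM with iEZH against 0.348 and 0.342 FPKM with DMSO in SUDHL6, and 0.942 and 1.01 FPKM with iEZH against 0.643 and 0.461 FPKM with DMSO in HT. LINC00173 was lower in both, with 0.268 and 0.293 FPKM with iEZH against 0.491 and 0.432 FPKM with DMSO in SUDHL6, and 0.636 and 0.339 FPKM with iEZH against 0.898 and 0.948 FPKM with DMSO in HT. These 2 were named after their values were seen.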

How the data were processed

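RNA was measured in 8 libraries of SUDHL6 and HT cells, 2 per line and treatment. Per the submitters' processing notes, reads were processed on hg19 with TopHat 1.4.1 and Cufflinks; options, annotation and strandedness are not given in the sources used here. The authors deposited FPKM per gene and library in 1 table per line, limited per the file headers to detectable genes; total reads per library come from the same files, and read numbers per gene were not analysed here, so no counting intervals are given. Values were used as deposited. Genes of 300 bp or more that reached 1 FPKM in 2 or more of the 4 libraries of a line were fitted as log2(FPKM + 1) with limma 3.58.1 in R 4.3.3 (eBayes with trend, two-sided, Benjamini-Hochberg over all genes tested, threshold 0.05). The difference between lines is the interaction term of 1 fit of all 8 libraries. Short rows were left out because earlier results of these data showed them jumping between the floor and high values. The members, lists, tests and the rule for named genes were chosen with earlier results of these data known. That rule takes the called members, the 4 largest changes that missed the test, the 5 highest levels, crossings of 1 FPKM, pairs with a called gene and the 5 largest differences between lines. Pairs were matched by the symbol before -AS. The fits were tested on simulated data. Alternatives covered pseudocount, filter, scaling, variance model, joint fit, replicate block and leaving out each library. One gene of the B cell marker list is not reported here, and the sums leave it out.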

Additional observations from a re-analysis of the deposited data

How the results depend on the processing

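The alternatives followed 14 single results, those of the called member and of the largest changes and differences between lines. None of them reversed its sign, but they were chosen for size and do not stand for the other members. The balance of higher and lower members moved with the scaling, as given in the results, so other members did change sign. Of the counts, the called members of HT, 1 as reported, were 0 with rows under 300 bp kept (0.609% of all genes). At a filter of 5 FPKM they were 0 (4.62% of all genes). With quantile normalization they were 2, BOLA3-AS1 and SPAG5-AS1, both lower (2.7% of members, against 2.41% of all genes). Both had entered the test only through DMSO. Fits that left out 1 library assume that a lone library varies like the others. The log2 change of KDM5B-AS1 in HT was 0.72 to 0.87 in them, and the gene entered only through iEZH. LINC00341 in SUDHL6 likewise entered only through iEZH, so its calls given below carry the same limit. KDM5B-AS1 was not part of the joint fit of both lines. There LINC00461 was the HT member called (1.47% of members, against 7.31% of all genes). When 1 HT library was left out, the log2 change of PCNA-AS1 in HT was -2.28 to -0.63. That of MCF2L-AS1 was 0.35 to 0.77 and that of OIP5-AS1 -0.8 to -0.25. The called members of SUDHL6, 0 as reported, were 4 with both lines in 1 fit (4.44% of all genes) and 2 to 3 when 1 library was left out (1.82% to 4.24%), with LINC00341 in each of these fits. Same-sign pairs in SUDHL6 were 40 of 70 with no filter and 21 of 45 with quantile normalization. They were 13 of 16 at 5 FPKM and 10 of 17 without overlapping spans. In HT they were 42 of 71 with no filter and 28 of 46 with quantile normalization. There they were 8 of 10 at 5 FPKM and 17 of 21 without overlapping spans. When 1 library was left out they were 21 to 25 of 45 in SUDHL6 and 27 to 33 of 46 in HT. Fewer pairs were tested at 5 FPKM and without overlapping spans, and more with no filter.

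What the replicate numbers stand for is not stated. Deviations of same-numbered libraries correlated across genes at 0.73 in SUDHL6 and 0.62 in HT, from 2 numbers per line. With a replicate block 25 of 74 members were called in SUDHL6 (18 higher, 7 lower), 33.8% against 34.3% of all genes. In HT 21 of 74 were called (10 higher, 11 lower), 28.4% against 33.5%. In the difference between lines 7 of 68 were called with the block (6 higher and 1 lower in SUDHL6). The share over all genes was not counted there, so that number cannot be set against a background.

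Limits are the 2 libraries per group, the low FPKM of most members, and the unstated strand, which leaves overlapping pairs unresolved.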

Other observations

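A list of other well-known long noncoding RNA genes, outside the naming rule, was read from the same fits. In HT 16 were tested and 2 passed, MIR22HG upwards and NEAT1 downwards, where 5.51% of all genes passed. MIR22HG, the host gene of miR-22, had 5.53 and 4.41 FPKM with iEZH against 2.14 and 1.54 FPKM with DMSO (log2 change 1.07; limma, adjusted p = 0.0257). NEAT1, the scaffold RNA of paraspeckles, had 76.1 and 70.5 FPKM with iEZH against 117 and 108 FPKM with DMSO (-0.61; adjusted p = 0.0464). With rows under 300 bp kept, neither passed, at adjusted p of 0.0583 for MIR22HG and 0.0756 for NEAT1. In SUDHL6 13 were tested and 0 passed limma, with 4 at an unadjusted p under 0.05, against 2164 of 11006 genes; MIR22HG had 1.75 and 1.95 FPKM with iEZH against 0.599 and 0.458 FPKM with DMSO (0.90; adjusted p = 0.0766). The difference between lines was not tested for this list. Its median log2 change was 0.28 in SUDHL6 and -0.07 in HT, against 0.04 and 0.02 over all genes.

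MIR210HG, the host gene of the hypoxia-linked miR-210, had 2.20 and 2.30 FPKM with iEZH against 0.797 and 0.536 FPKM with DMSO in SUDHL6 (0.97; limma, adjusted p = 0.0766), and overlapped in HT. MIR210HG and MIR22HG passed the filter in SUDHL6 only through their iEZH libraries. MIR155HG, whose miR-155 acts in B cell activation, had 9.97 and 8.24 FPKM with iEZH against 5.67 and 5.83 FPKM with DMSO in SUDHL6 (0.58; adjusted p = 0.106) and stayed under the filter in HT.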
